A study of Mus musculus with 12 samples.

Results

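Arginine feeds competing enzymes in the liver, and the genes of that branch point described here are the arginases Arg1 and Arg2, the inducible nitric oxide synthase Nos2 and the arginine transporter gene Slc7a2. The 4 genes were chosen by name, and all 4 were found among the 19938 genes of the array, each through its only probe set (10368343 for Arg1, 10396831 for Arg2, 10379228 for Nos2 and 10571444 for Slc7a2). Arginase splits arginine into ornithine and urea. Arg1 is the cytosolic form, the last step of the urea cycle in hepatocytes, and Arg2 is a mitochondrial form found mostly outside hepatocytes. Nos2 makes nitric oxide and citrulline from the same substrate and is a textbook target of NF-kB in macrophages and hepatocytes exposed to bacterial products. Slc7a2 encodes the cationic amino acid transporter CAT-2, which carries arginine, lysine and ornithine across the plasma membrane.

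RNA of 12 livers from male C57Bl6/J mice was hybridised to Affymetrix GeneChip whole-transcript arrays, with 1 array for each liver and 4 livers in each of 3 groups. The groups were S534A mice given lipopolysaccharide (LPS) at 1 µg/kg, wild-type (WT) mice given LPS at the same dose, and WT mice left untreated. S534A mice are homozygous for a germline knock-in that replaces a serine of p65 with alanine; p65 is a subunit of NF-kB and is encoded by Rela. The allele came from targeted PTL1 embryonic stem cells, was backcrossed to C57Bl6/J and is not limited to a cell type. The labels used here state neither the age of the mice nor how long after LPS the livers were taken. Without untreated S534A livers, which were not analysed here, a difference between genotypes in the response to LPS and one that was there beforehand cannot be told apart. Titles of the untreated arrays follow a scheme of their own, and if these arrays were a separate run, it and LPS cannot be told apart.

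The values are log2 expression values, so a difference of 1 is a doubling, and they ran from 3.43 to 14.48 over all probe sets. Array medians lay between 6.15 and 6.32. Means are given with the SD of 4 arrays and differences with limma's standard error (SE); a call means an adjusted p (Benjamini-Hochberg, over all 19938 genes) under 0.05. The labels count livers without saying that each came from a separate animal, so the p-values reflect the spread between these samples only, which may be technical, and the number of arrays limits the precision. In RNA from whole liver, fewer cells of a type and less RNA per cell cannot be told apart. The 9 measured hepatocyte markers averaged 13.38 to 13.44 in S534A LPS livers, 13.42 to 13.49 in WT LPS livers and 13.43 to 13.50 in untreated livers. Rela transcript read 11.20 ± 0.06 in S534A LPS livers, 11.11 ± 0.08 in WT LPS livers and 9.96 ± 0.14 in untreated livers (SD, n = 4 each), which cannot show which mice carried the substitution. Exocrine pancreas transcripts were high on 3 arrays: the mean of 9 pancreas genes was 9.22 on S534A LPS replicate 3, 8.18 on WT LPS replicate 2 and 6.70 on WT LPS replicate 3, against 5.80 to 6.30 on the other arrays.

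The first comparison asked what LPS did to these genes in WT liver. Nos2 and Arg2 rose, and neither Arg1 nor Slc7a2 passed the test. Nos2 was 2.85-fold higher and Arg2 1.55-fold higher after LPS. So 2 of the 4 genes were called higher, against 9.34% of all genes called higher in this comparison.

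Nos2 read 7.28, 7.09, 6.74 and 7.67 on the WT LPS arrays, against 5.80, 5.69, 5.91 and 5.34 on the untreated arrays. Every WT LPS value lay above every untreated value, as it did for 9.78% of all genes. The group means were 7.20 ± 0.39 in WT LPS livers and 5.69 ± 0.25 in untreated livers (SD, n = 4 each), a log2 difference of 1.51 ± 0.20 (SE; 95% interval 1.08 to 1.95; limma adjusted p = 0.000118). Of the 19938 genes, 279 had a larger difference in either direction. The rise was called without each single array in turn, with differences from 1.35 to 1.66.

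Arg2 read 6.49, 6.02, 6.19 and 6.23 on the WT LPS arrays, against 5.58, 5.58, 5.53 and 5.71 on the untreated arrays. Again the groups did not overlap, and WT LPS replicate 1 was the highest of its group. The means were 6.24 ± 0.19 in WT LPS livers and 5.60 ± 0.08 in untreated livers (SD, n = 4 each), a log2 difference of 0.63 ± 0.09 (SE; 95% interval 0.44 to 0.83; limma adjusted p = 0.000226). The call held without each single array in turn, with differences from 0.55 to 0.70. The untreated values of Arg2, like those of Nos2, stood not far above the lower quartile of all probe sets, which lay between 4.97 and 5.09 on the 12 arrays, and dim probe sets tend to understate a fold change.

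Arg1 read 12.55, 12.50, 12.55 and 12.58 on the WT LPS arrays, against 12.63, 12.64, 12.52 and 12.36 on the untreated arrays. The log2 difference was 0.01 ± 0.06 (SE; limma adjusted p = 0.934), with a 95% interval from -0.13 to 0.15. Over all 12 livers Arg1 stayed within 12.36 and 12.64, a span of 0.28. Its SD within groups averaged 0.08, and 84.5% of all genes had a larger one. Values this high lie near the top of the array's range, where changes can also be understated.

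Slc7a2 varied more between livers of a group than between groups. It read 12.09, 11.84, 12.23 and 11.67 on the WT LPS arrays, against 11.32, 12.29, 11.64 and 12.09 on the untreated arrays. The ranges overlapped, and the log2 difference was 0.12 ± 0.18 (SE; 95% interval -0.28 to 0.52; limma adjusted p = 0.683). The untreated livers alone spanned 0.97, or 1.96-fold, and 3.85% of all genes had a larger SD within groups than the 0.30 of Slc7a2. A probe set of the whole gene does not tell the splice forms of CAT-2 apart.

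**Figure D1:**
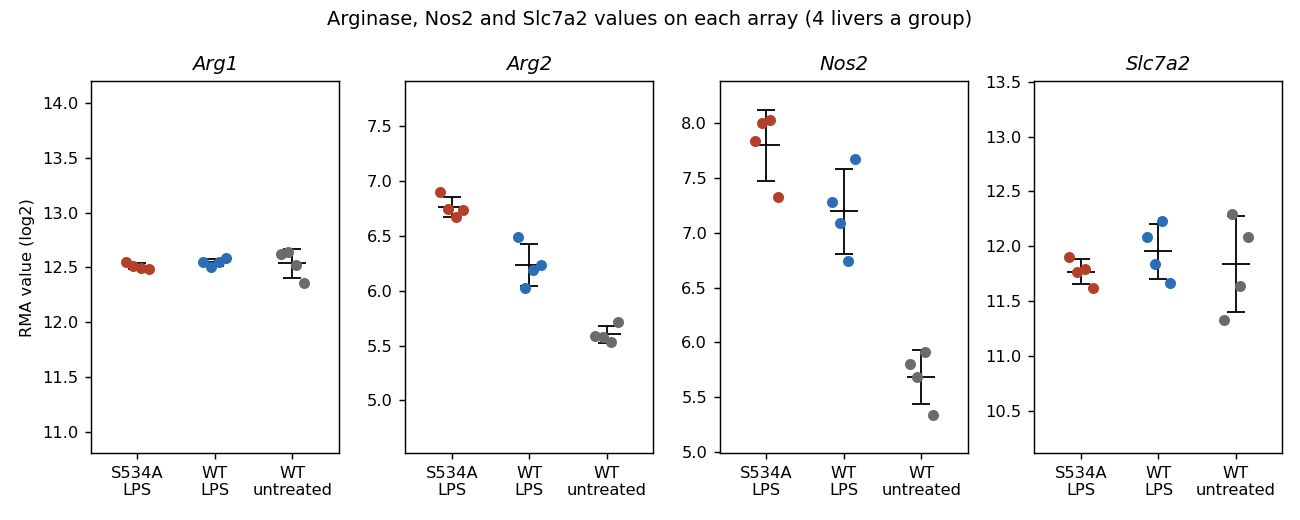
RMA value (log2, vertical axis, the same span in each panel) of Arg1, Arg2, Nos2 and Slc7a2 on each of the 12 arrays; points are single livers, the horizontal marks and bars are the group mean and SD (n = 4). Arg2 separates all 3 groups, Nos2 separates untreated from LPS livers while its 2 LPS groups overlap, and Arg1 and Slc7a2 show no separation of any pair of groups.

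The second comparison set S534A against WT livers, both after LPS. Arg2 was 1.44-fold higher in S534A livers and was the only one of the 4 genes called, against 0.166% of all genes called higher. Nos2 was 1.52-fold higher by its means but did not pass, and Arg1 and Slc7a2 did not pass either. That Arg2 stands among the few genes called here was known when the genes were chosen.

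Arg2 read 6.90, 6.75, 6.68 and 6.74 in S534A LPS livers, all above the highest WT LPS value of 6.49. Such a separation in this direction was seen for 3.25% of all genes. The means were 6.77 ± 0.09 in S534A LPS livers and 6.24 ± 0.19 in WT LPS livers (SD, n = 4 each). The log2 difference was 0.53 ± 0.09 (SE; 95% interval 0.33 to 0.73; limma adjusted p = 0.0429), the 32nd smallest p of all genes, and an exact two-sided permutation test gave p = 0.0286, the smallest that 4 against 4 arrays allow. The call was close to the threshold: it was lost without any one of 10 of the 12 arrays (all except WT untreated replicate 4 and WT LPS replicate 1), with limma adjusted p up to 0.177 and differences from 0.46 to 0.62. With the 3 arrays that carried pancreas transcripts left out, Arg2 differed by 0.43 (limma adjusted p = 0.631). The arrays left out held the lowest Arg2 values of their groups (6.02 and 6.19 in WT LPS livers, 6.68 in S534A LPS livers). Only replicates 1 and 4 of the WT LPS group remain in that setting. For a call lost there, fewer arrays and pancreas transcripts cannot be told apart.

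Nos2 read 7.84, 8.00, 8.03 and 7.33 in S534A LPS livers, against the WT LPS values given above. S534A replicate 4 lay below WT LPS replicate 4 (7.67), so the groups overlapped. The means were 7.80 ± 0.33 in S534A LPS livers and 7.20 ± 0.39 in WT LPS livers (SD, n = 4 each). The log2 difference was 0.60 ± 0.20 (SE; limma adjusted p = 0.484; unadjusted p = 0.0103), and the exact two-sided permutation test gave p = 0.0571. Its unadjusted 95% interval ran from 0.17 to 1.04. The SD within groups averaged 0.33 for Nos2, a spread exceeded by 2.80% of all genes, and 0.13 for Arg2, close to the median of 0.13 over all genes.

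Arg1 read 12.55, 12.51, 12.50 and 12.49 in S534A LPS livers, a log2 difference from WT LPS livers of -0.04 ± 0.06 (SE; 95% interval -0.18 to 0.11; limma adjusted p = 1.00). Slc7a2 read 11.90, 11.76, 11.79 and 11.62 in S534A LPS livers, within the WT LPS range of 11.67 to 12.23 except for the last. Its difference was -0.19 ± 0.18 (SE; 95% interval -0.59 to 0.21; limma adjusted p = 1.00). A p that misses the threshold does not show that the genotypes were alike.

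The third comparison set S534A LPS livers against untreated WT livers and shares arrays with both others. Nos2 was 4.33-fold and Arg2 2.24-fold higher, and 2 of the 4 genes were called higher, against 11% of all genes. The log2 differences were 2.11 ± 0.20 for Nos2 (SE; limma adjusted p = 4.98e-06) and 1.16 ± 0.09 for Arg2 (SE; limma adjusted p = 8.35e-07). For both genes every S534A LPS value exceeded every untreated value, as for 13.8% of all genes. Arg1 differed by -0.03 ± 0.06 (SE; limma adjusted p = 0.809) and Slc7a2 by -0.07 ± 0.18 (SE; limma adjusted p = 0.827). Genotype and LPS both differ between these groups.

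**Figure D2:**
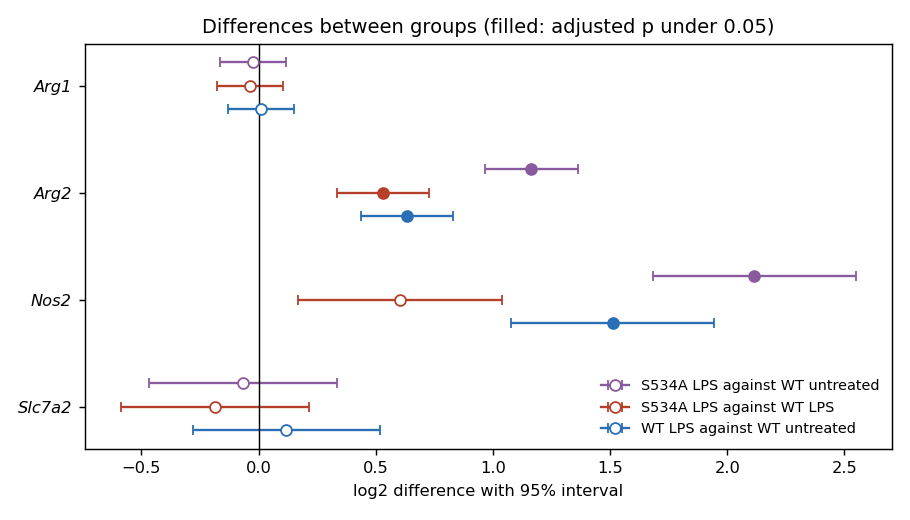
Log2 difference (horizontal axis) of each gene in the 3 comparisons, with limma's 95% interval as bars; filled points passed an adjusted p of 0.05. For Arg2 all 3 intervals lie above 0 and all 3 differences were called, for Nos2 the difference of 0.60 between the LPS groups was not called, and for Arg1 and Slc7a2 all intervals include 0.

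By their group means, neutrophil markers moved with both Arg2 and Nos2. The mean of 15 measured neutrophil markers was 7.26 to 7.50 in S534A LPS livers, 7.00 to 7.19 in WT LPS livers and 5.79 to 6.01 in untreated livers, so that it separated all 3 groups in the same order as Arg2. The list includes Lcn2, which hepatocytes also make in inflammation. Of the 15, 12 rose in WT LPS against untreated livers, against 9.34% of all genes. Between the LPS groups 2 of the 15 were called, against 0.171% of all genes. Both were higher in S534A livers, Retnlg by 0.68 (limma adjusted p = 0.0158) and S100a9 by 0.52 (0.0385). By their means 12 of the 15 were higher in S534A livers, and Mpo (-0.15), Lcn2 (-0.05) and Elane (-0.02) were lower. Within the LPS groups, S534A replicate 1 and WT replicate 1 had the highest Arg2 value and the highest neutrophil mean of their group. That match was not particular to neutrophil markers. The same arrays had the highest means of their group for the monocyte markers described below (6.82 and 6.87). Means of alternatively activated macrophage markers were also highest there (6.10 and 6.07). Kupffer cell and macrophage markers were highest on WT replicate 1 (9.03) but on S534A replicate 4 (8.91). The highest Nos2 values of the S534A group were on replicates 3 and 2, which had its lowest neutrophil means, whereas those of the WT LPS group were on replicates 4 and 1, which had its highest. With the neutrophil mean as a covariate, Arg2 differed by 0.32 ± 0.14 (SE; limma adjusted p = 1.00) and Nos2 by 0.48 ± 0.34 (SE; limma adjusted p = 1.00) between the LPS groups. The marker mean separates all 3 groups itself, the LPS groups included, so that fit cannot tell group and marker mean apart in any comparison. Against untreated livers it says little: the SE of Arg2 in the WT comparison grew to 0.50.

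Other cell type lists showed less of a genotype difference. The mean of 7 monocyte markers was 6.66 to 6.82 in S534A LPS livers, 6.40 to 6.87 in WT LPS livers and 5.50 to 5.61 in untreated livers. The mean of 13 Kupffer cell and macrophage markers was 8.73 to 8.91 in S534A LPS livers, 8.45 to 9.03 in WT LPS livers and 8.89 to 9.35 in untreated livers. Markers of alternatively activated macrophages, a state of which Arg1 itself is a classic marker in mice, averaged 6.02 to 6.10 in S534A LPS livers, 6.02 to 6.07 in WT LPS livers and 5.97 to 6.08 in untreated livers. Of those 8 genes, 2 rose and 1 fell in WT LPS against untreated livers, where 25% of all genes were called. The part of these cells in the Arg2 and Nos2 results was not tested.

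Circadian clock genes moved with Slc7a2 among the untreated livers. Slc7a2 was highest on untreated replicates 2 and 4, where the mean of 9 clock genes was 9.64 and 9.67, and lowest on replicates 1 and 3, where it was 8.18 and 7.81. The clock mean was 8.38 to 8.74 in S534A LPS livers and 8.73 to 8.86 in WT LPS livers, lower in S534A livers by its mean, as Slc7a2 was. Within the S534A LPS group, though, replicate 1 had the lowest clock mean (8.38) and the highest Slc7a2 value (11.90). In the WT LPS group replicate 3 had the highest of both (8.86 and 12.23). With the clock mean as a covariate, a setting chosen after the data were seen, Slc7a2 differed by 0.14 ± 0.13 between WT LPS and untreated livers (SE; limma adjusted p = 0.484). With untreated replicates 2 and 4 left out, also chosen after the data were seen, the difference was 0.47 (limma adjusted p = 0.0453), and the call therefore depended on which untreated livers were used. The part of the clock in the Slc7a2 values was not tested.

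**Figure D3:**
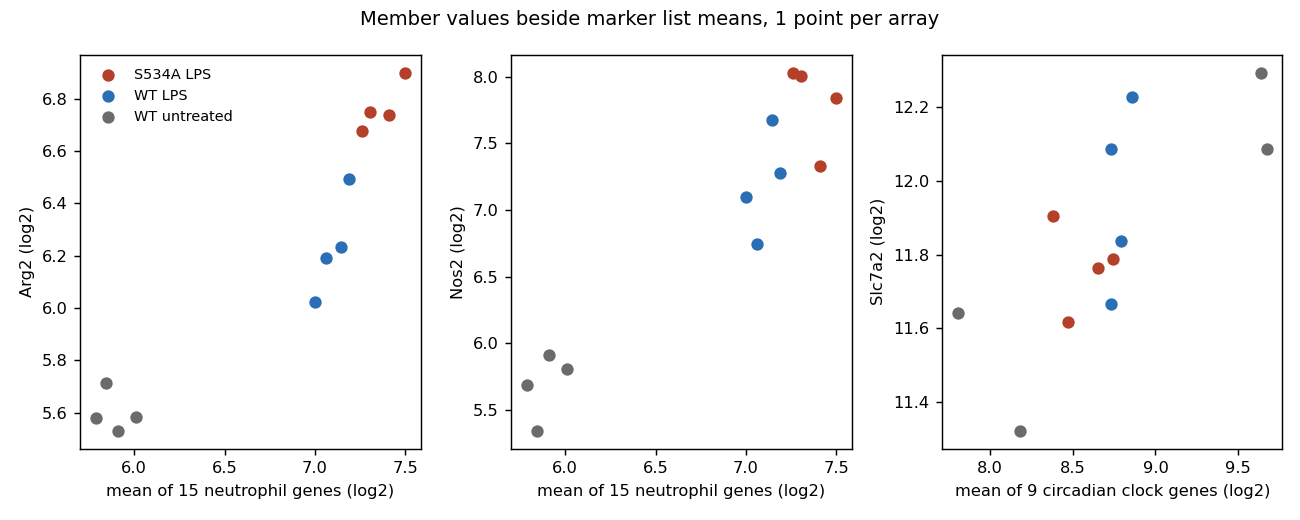
Arg2 and Nos2 (vertical axes, log2) against the mean of 15 neutrophil genes, and Slc7a2 against the mean of 9 circadian clock genes (horizontal axes, log2), 1 point per array and colours by group. Arg2 and the neutrophil mean order the 3 groups alike, Nos2 does so with overlap of the LPS groups, and the 2 untreated livers with a clock mean of 9.64 and 9.67 have higher Slc7a2 values than the 2 with 8.18 and 7.81.

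The remaining genes of arginine metabolism were counted from lists drawn up from general knowledge, 62 genes of which 53 had a value. In WT LPS against untreated livers 4 rose and 13 fell, or 32.1% called against 25% of all genes (9.34% higher and 15.6% lower), with a median log2 difference of -0.06 over the 53, against 0.02 over all genes. In S534A LPS against untreated livers 8 rose and 18 fell, or 49.1% called against 26.9% of all genes (11% higher and 16% lower), with medians of -0.04 and 0.03. Between S534A and WT livers after LPS limma called 0 of the 53, against 0.171% of all genes, and 3 had an unadjusted p under 0.05. Of the 17 called in WT LPS livers, 16 were also called in S534A LPS livers, in the same direction. These comparisons share the untreated arrays. The same overlap was not counted over all genes, so it cannot be read as a trait of the arginine genes. Without the 3 arrays with pancreas transcripts, which leaves only replicates 1 and 4 of the WT LPS group, 8 genes were called in WT LPS livers, 4 higher and 4 lower. The share of all genes called in that setting was not counted, so the drop from 17 cannot be read as particular to these genes.

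Among the other transporters, Slc7a7, which encodes a subunit of the y+L exchanger for cationic amino acids, rose 1.95-fold in WT LPS livers. It read 7.72 ± 0.34 in WT LPS livers and 6.76 ± 0.26 in untreated livers (SD, n = 4 each; limma adjusted p = 0.000682). Its relative Slc7a6 rose by 0.40 ± 0.08 (SE) and Slc7a5, the light chain of the large neutral amino acid transporter, fell by 0.41 ± 0.10 (SE), a call not made with untreated replicates 2 and 4 left out. The other 6 of the 9 transporter genes did not pass, so 33.3% were called against 25% of all genes. In S534A LPS against untreated livers 5 of the 9 rose, or 55.6% against 11% of all genes called higher, among them Slc7a6 (0.49 ± 0.08, SE), Slc7a7 (0.96 ± 0.16) and Slc7a1, which encodes the housekeeping arginine transporter CAT-1 (0.64 ± 0.14; limma adjusted p = 0.00478). Slc7a3 rose by 0.26 ± 0.09 (SE) and lost its call without any one of 7 arrays (limma adjusted p up to 0.0995). Slc7a5 had the smallest p of these genes between the LPS groups and differed by 0.17 ± 0.10 (SE; limma adjusted p = 1.00).

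Around Arg1 in the urea cycle, 1 of 7 genes was called in WT LPS livers, or 14.3% against 25% of all genes. Otc, which encodes ornithine transcarbamylase, read 11.77 ± 0.11 in WT LPS livers and 12.11 ± 0.13 in untreated livers (SD, n = 4 each), and fell by 0.34 ± 0.08 (SE; limma adjusted p = 0.00523), a call not made without the 3 arrays with pancreas transcripts. It fell by 0.37 ± 0.08 (SE) in S534A LPS against untreated livers. Nags, which makes the activator of the first enzyme of the cycle, fell by 0.23 ± 0.07 (SE; limma adjusted p = 0.0365) in S534A LPS against untreated livers, a call lost without any one of 7 arrays (up to 0.111). It had the smallest p of the list between the LPS groups (-0.19 ± 0.07, SE; limma adjusted p = 0.688).

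Around Nos2, the largest change was that of Nos1ap, an adaptor protein of the neuronal nitric oxide synthase. Nos1ap read 8.83 ± 0.11 in S534A LPS livers, 8.83 ± 0.05 in WT LPS livers and 6.83 ± 0.08 in untreated livers (SD, n = 4 each). It was 4.00-fold higher in WT LPS than in untreated livers (limma adjusted p = 2.30e-10). Of the 14 genes of this list 1 rose and 4 fell in WT LPS livers, or 35.7% called against 25% of all genes. Those that fell were Spr, sepiapterin reductase (-0.29 ± 0.07, SE), Gchfr, the feedback regulator of GTP cyclohydrolase (-0.27 ± 0.06), Pcbd1 (-0.20 ± 0.05) and Qdpr, which regenerates tetrahydrobiopterin, a cofactor of nitric oxide synthases, and was named to complete the count (-0.21 ± 0.06). Spr, Pcbd1 and Qdpr were not called without the 3 arrays with pancreas transcripts. In S534A LPS against untreated livers Qdpr fell by 0.26 ± 0.06, Pcbd1 by 0.22 ± 0.05 and Gchfr by 0.22 ± 0.06 (SE).

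The other two nitric oxide synthases were not called in WT LPS against untreated livers. Nos1, the neuronal form, read 6.10 ± 0.37 in WT LPS livers and 5.84 ± 0.17 in untreated livers (SD, n = 4 each; limma adjusted p = 0.227), but was called without WT LPS replicate 1 (adjusted p = 0.0168). Nos3, the endothelial form, read 6.64 ± 0.11 in S534A LPS livers, 6.76 ± 0.14 in WT LPS livers and 6.90 ± 0.07 in untreated livers (SD, n = 4 each). It fell by 0.26 ± 0.08 in S534A LPS against untreated livers (SE; limma adjusted p = 0.0294), a call lost without any one of 5 arrays (up to 0.0926); in WT LPS livers its adjusted p was 0.225. Nos3 had the smallest p of the nitric oxide list between the LPS groups (-0.12 ± 0.08, SE; limma adjusted p = 1.00). Nos1 was named for its family after its values were seen. The markers of sinusoidal endothelial cells, which express Nos3, averaged 8.96 to 9.17 in S534A LPS livers, 8.94 to 9.36 in WT LPS livers and 9.52 to 9.71 in untreated livers, and their part in the Nos3 values was not tested.

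Downstream of arginase, 4 of 14 genes of ornithine, proline and polyamine metabolism fell in WT LPS livers and none rose, or 28.6% called against 25% of all genes. Sat2, named as a relative of the polyamine acetyltransferase Sat1, read 7.61 ± 0.28 in WT LPS livers and 8.46 ± 0.16 in untreated livers (SD, n = 4 each), and fell by 0.84 ± 0.13 (SE; limma adjusted p = 0.000312). Oaz2, an antizyme that inhibits ornithine decarboxylase, fell by 0.55 ± 0.14 (SE), Aldh4a1 of proline breakdown by 0.39 ± 0.08, and Agmat by 0.20 ± 0.07. Agmat lost its call without any one of 6 arrays (limma adjusted p up to 0.105), and Oaz2 and Agmat were not called without the 3 arrays with pancreas transcripts. In S534A LPS against untreated livers 1 of the 14 rose and 6 fell, or 50% called against 26.9% of all genes. Smox, spermine oxidase, rose by 0.49 ± 0.09 (SE), while Sat2 fell by 0.82 ± 0.13, Srm, spermidine synthase, by 0.51 ± 0.10 and Aldh4a1 by 0.37 ± 0.08. Smox had the smallest p of all 53 genes between the LPS groups (0.24 ± 0.09, SE; limma adjusted p = 0.588). Its groups did not overlap, as for 3.25% of all genes in this direction.

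Of 9 genes of creatine synthesis and arginine methylation, 1 rose and 3 fell in WT LPS livers, or 44.4% called against 25% of all genes. Gatm and Gamt, the pair of enzymes that make creatine from arginine and glycine, fell 1.86-fold and 1.38-fold. Gatm read 8.24 ± 0.35 in WT LPS livers and 9.14 ± 0.35 in untreated livers (SD, n = 4 each; limma adjusted p = 0.0036). Carm1, an arginine methyltransferase, fell by 0.25 ± 0.07 (SE) and Prmt6, another, rose by 0.33 ± 0.07 (SE). Gatm, Gamt and Carm1 were not called without the 3 arrays with pancreas transcripts. In S534A LPS against untreated livers 1 rose and 5 fell, or 66.7% called against 26.9% of all genes. Gatm fell by 0.86 ± 0.19, Gamt by 0.47 ± 0.09 and Prmt5 by 0.30 ± 0.08 (SE), while Prmt6 rose by 0.36 ± 0.07. The Prmt5 call was lost without S534A LPS replicate 4 (limma adjusted p = 0.0557), and Prmt5 had the smallest p of the list between the LPS groups (-0.12 ± 0.08, SE; adjusted p = 1.00).

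**Figure D4:**
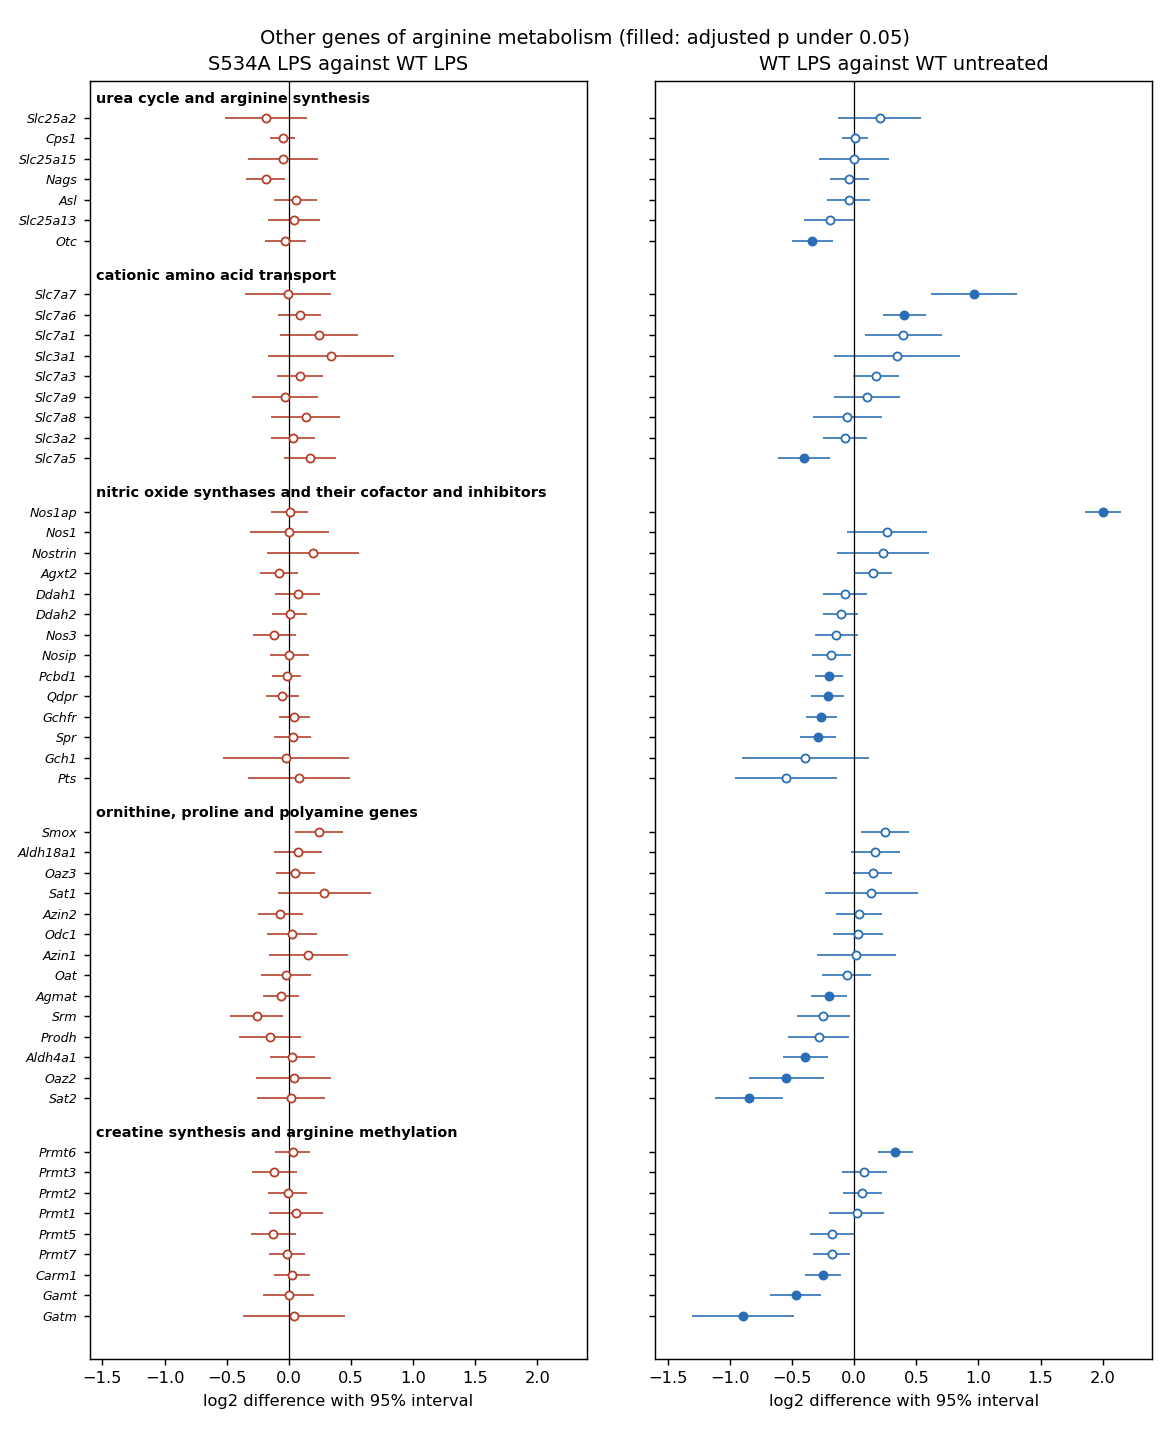
Log2 difference (horizontal axis, bars are limma's 95% intervals) of the 53 other genes of arginine metabolism, grouped by list, for S534A LPS against WT LPS (left) and WT LPS against untreated (right); filled points passed an adjusted p of 0.05. No gene is filled on the left, and 17 are filled on the right, with Nos1ap at 2.00 the largest.

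The genes whose profile over the 12 arrays was most like that of Arg2, each centred on its own mean, were Sntb2, Cyrib and Ppm1l, with root mean square differences of 0.11, 0.12 and 0.12 on the log2 scale, against a median of 0.50 over all genes. Sntb2, which encodes a syntrophin, differed by 0.62 between WT LPS and untreated livers and by 0.44 between S534A and WT LPS livers. For Cyrib the differences were 0.67 and 0.39, and for Ppm1l, which encodes a protein phosphatase, 0.58 and 0.41. All 3 rose in WT LPS livers, which follows from picking them by their likeness to Arg2 over these same arrays. None was called between the LPS groups (limma adjusted p = 0.241, 0.433 and 0.301), though Ppm1l was without WT LPS replicate 1 (0.0458).

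For Nos2 the most alike were Cd40, Slc2a6 and Clec4e, with root mean square differences of 0.24, 0.24 and 0.25, against a median of 0.93. Cd40, the co-stimulatory receptor, differed by 1.64 between WT LPS and untreated livers and by 0.53 between S534A and WT LPS livers (limma adjusted p = 0.0429). That second call was lost without any one of 10 arrays (up to 0.173). Slc2a6, which encodes a hexose transporter, differed by 1.65 and 0.24, and Clec4e, which encodes the receptor Mincle, by 1.77 and 0.25, and neither was called between the LPS groups (limma adjusted p = 0.986 and 1.00). All 3 rose in WT LPS livers, which again follows from how they were picked.

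The 4 genes lie on 4 different chromosomes. The nearest measured neighbours of Arg2, Pigh and Vti1b, were not called in WT LPS livers (-0.13 ± 0.08 and -0.22 ± 0.09, SE; limma adjusted p = 0.259 and 0.114), though Vti1b was without untreated replicate 3 (0.0311). Pigh was called there with the arrays weighted, and with untreated replicates 2 and 4 left out. Vti1b was called with untreated replicates 1 and 3 left out. Both of these omissions were added after the data were seen. Of the neighbours of Nos2, Lyrm9 was not called (-0.14 ± 0.10, SE; limma adjusted p = 0.335). Lgals9, which encodes galectin-9, rose by 0.25 ± 0.07 (SE; adjusted p = 0.0166), a call lost without untreated replicate 2 (0.052). In S534A LPS against untreated livers Pigh fell by 0.26 ± 0.08 (SE; limma adjusted p = 0.0220), a call lost without any one of 4 arrays (up to 0.0650). Lgals9 rose there by 0.26 ± 0.07 (SE; limma adjusted p = 0.0116), and Vti1b and Lyrm9 were not called (0.189 and 0.489). No neighbour of Arg2 or Nos2 was called between the LPS groups.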

How the data were processed

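The authors deposited log2 values per probe set, made with RMA per the submitters' processing notes (background correction, quantile normalisation and summarisation); neither the RMA version nor the annotation's build is given in the sources used here. The 35556 probe sets held 21789 with 1 gene symbol, 1621 with several and 12146 with none; the last 2 kinds were not used. Symbols were updated through Entrez identifiers for 21698 probe sets with a GRCm38.p6 gene table, used only for names and neighbours. The probe set with the highest mean stood for each of 19938 genes. The tests were two-sided, from 1 linear model over all 12 arrays (limma 3.58.1, R 4.3.3, default empirical Bayes), and the procedure was tested on simulated data. Same-numbered arrays of the LPS groups did not deviate together (correlations of deviations from group means -0.23 to 0.06 over 4 pairs), so no pairing was used. No pair of arrays shared over 0.0422% identical values. Genes named are the 4 members; from each list up to 4 called genes with the smallest p per comparison, and the smallest p between the LPS groups; the 3 most similar profiles; Nos1, Qdpr and chromosomal neighbours besides. The members and lists were chosen with earlier results of these data known. Ass1 and 8 other listed genes had no probe set of their own and were not analysed here.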

Additional observations from a re-analysis of the deposited data

Results flagged for a closer look

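In each group of 4 arrays the gap between the highest or lowest value and its nearest neighbour was set against the group's range (Dixon's test) for 39 named genes, 117 groups in all. Chance flags about 1 in 20 groups, and 2 stood apart. None belonged to Arg1, Arg2, Nos2 or Slc7a2. Clec4e read 6.64 on S534A LPS replicate 4, against 7.20 to 7.27 on the other 3 arrays of that group. Nos2 was also lowest of its group on that array (7.33). Clec4e was picked for its likeness to Nos2 over these same arrays, so the shared low array is not independent of that choice. Prmt6 read 6.48 on untreated replicate 3, against 6.62 to 6.65 on the other 3 untreated arrays.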

How the results depend on the processing

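Arg1, Arg2, Nos2 and Slc7a2 kept their side of the threshold and, where called, their direction in 322 of 345 values recomputed under the alternatives; the others follow. With the neutrophil mean as a covariate Arg2 read -0.32 in WT LPS and -0.000484 in S534A LPS against untreated livers, Nos2 0.95 and 1.43, neither gene was called (0 of 4), and 0 pathway genes were. In that fit the sign also turned for Slc7a7 (-0.60 and -0.95), Gchfr (0.078 and 0.20), Prmt6 (-0.048 and -0.10) and Lgals9 (-0.40 and -0.53) in WT and S534A livers, for Slc7a5 (0.035), Oaz2 (0.52), Agmat (0.25) and Cyrib (-0.16) in WT livers, and for Slc7a1 (-0.24) and Smox (-0.34) in S534A livers; the marker mean separates LPS from untreated arrays, so the fit has little to separate them by. Between the LPS groups the Arg2 call was lost, leaving 0 members called, with the quantile normalisation repeated (0.54), arrays centred on their medians (0.53), only the 2 groups compared (0.53), the neutrophil mean (0.32), an adjusted p under 0.01 (0.53), untreated arrays 1 and 3 left out (0.53, added after the data were seen) or the 3 arrays with pancreas transcripts left out (0.43). Fitted with the replicate block, Arg2 read 0.53 (adjusted p = 0.0741) and 0 members were called; the numbers do not pair the arrays, and the block changed no other member's call. Leaving out each array in turn gave Arg2 differences of 0.46 to 0.62 and 0 to 1 members called. The filter on dim genes, which kept 9969 genes, dropped Arg2 and kept Nos2, whose mean passed it through the LPS groups, so 1, 0 and 1 members were called in the WT LPS, genotype and S534A comparisons, which adds nothing to the Nos2 calls. Without the 3 pancreas arrays 8 pathway genes were called in WT LPS livers; against untreated livers 15 were called in S534A livers at an adjusted p under 0.01 and 16 with untreated replicates 2 and 4 left out, where Slc7a2 was called in WT livers (0.47) and Slc7a5, Pcbd1, Qdpr, Carm1, Agmat and Lgals9 were not. The shares of all genes called were not counted under these settings, so the pathway counts have no background beside them. Other causes were not tested. Depth has no counterpart on arrays; Arg2 and Nos2 lay near the dim end of the values in untreated livers.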
